A study of Mus musculus with 14 samples.

Results

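The 49 genes described here encode the machinery that copies DNA in S phase and the factors that switch it on, from origin licensing to histone and DNA methylation upkeep. They were listed by function, with earlier results of these data known, out of 23152 genes measured on the array. All 49 were among the 17364 genes bright enough to test. Each gene was read by 5 to 43 probesets that name it alone (median 16, 822 in all), and its level is the median of those probesets on the log2 scale. The cultures were neural stem cells (NSCs) grown from the subventricular zone of pups at postnatal day 4. Each of the 7 cultures, called a clone in the labels, was started from 1 animal and received Cre recombinase from an adenovirus, Cic-/- and Cic+/+ alike; the promoter behind Cre is not stated in the labels. Clones 5 to 7 are Cic-/-, made from a conditional knockout (Cicflox/flox), with the loss of Cic checked by PCR by the submitters, and clones 1 to 4 are the Cic+/+ wild-type controls. Each clone was held for 24 h in NeuroCult proliferation medium with EGF and, in a separate culture, in the same medium without EGF, which gives 3 Cic-/- and 4 Cic+/+ arrays in each medium. The groups are small and each genotype is represented by a few lines. P-values are set against the spread of arrays within groups, where both arrays of a clone count as separate. Where each clone is its own control, EGF p-values are set against the spread of the change between clones.

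Replication starts when the origin recognition complex, Cdc6 and Cdt1 load the Mcm2 to Mcm7 helicase onto DNA in G1. At the start of S phase, cyclin E-dependent kinase and the Cdc7-Dbf4 kinase turn that helicase on with Cdc45 and the GINS complex, and polymerases, the sliding clamp and its loader follow. Most of these genes are transcribed in a burst at the G1 to S transition by E2F factors once the retinoblastoma protein is phosphorylated, which growth factors such as EGF bring about in NSCs. Cic encodes capicua, a repressor that is inactivated downstream of EGF receptor signalling. In bulk cultures such as these, fewer cells in S phase and less RNA per cell cannot be told apart.

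Promoters were available for 41 of the 49 genes, from RefSeq on the mouse build GRCm38.p6, each spanning 250 bases before to 50 bases after the annotated start. Mcm4, Gins1, Gins2, Gins4, Prim2, Pole, Rfc2 and Ccne2 were not among them. Both strands were searched for 4 forms of the E2F element, TTTGGCGC, TTTCCCGC, TTTCGCGC and TTTGCCGC, which can overlap one another on opposite strands. A match was present in 17 of the 41 genes (41.5%), against 2.6% of all genes with a promoter window. The forms searched for capicua, TGAATGAA, TGAATGGA, TCAATGAA and TCAATGGA, were present in 1 of the 41 genes, Mcm7, against 4.45% of all genes. A match is a description of these letters and not of a bound site. Below are 6 promoters in gene orientation, 5′ to 3′, with E2F matches in capitals. Dnmt1 was taken by the rule for naming genes, and Mcm3, Mcm5, Mcm6, Pole2 and E2f2 were chosen after their matches and values were seen, as helicase subunits with several matches or as genes that rose with EGF. Dnmt1 has 3 windows, with different annotated starts, and E2f2 has 2. For each of them the window with the most E2F matches is shown.
Dnmt1, chr9:20952574-20952873, minus strand: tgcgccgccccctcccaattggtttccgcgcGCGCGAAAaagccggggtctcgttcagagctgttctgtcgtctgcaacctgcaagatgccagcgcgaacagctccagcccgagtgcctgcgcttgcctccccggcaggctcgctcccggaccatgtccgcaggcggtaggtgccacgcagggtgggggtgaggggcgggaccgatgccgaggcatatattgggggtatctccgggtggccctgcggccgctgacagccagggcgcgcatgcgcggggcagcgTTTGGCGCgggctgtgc
Mcm3, chr1:20820263-20820562, minus strand: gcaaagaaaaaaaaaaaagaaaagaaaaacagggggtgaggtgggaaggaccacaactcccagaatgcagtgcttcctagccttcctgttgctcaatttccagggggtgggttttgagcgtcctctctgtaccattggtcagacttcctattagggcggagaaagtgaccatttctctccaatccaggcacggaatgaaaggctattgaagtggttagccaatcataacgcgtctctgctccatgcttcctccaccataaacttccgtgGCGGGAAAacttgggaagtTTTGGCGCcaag
Mcm5, chr8:75109259-75109558, plus strand: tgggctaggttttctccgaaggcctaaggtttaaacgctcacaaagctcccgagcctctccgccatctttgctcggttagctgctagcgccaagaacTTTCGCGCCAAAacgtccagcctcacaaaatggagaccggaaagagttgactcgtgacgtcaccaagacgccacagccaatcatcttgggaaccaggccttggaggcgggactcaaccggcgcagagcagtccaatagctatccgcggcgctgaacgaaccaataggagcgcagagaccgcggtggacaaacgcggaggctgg
Mcm6, chr1:128359656-128359955, minus strand: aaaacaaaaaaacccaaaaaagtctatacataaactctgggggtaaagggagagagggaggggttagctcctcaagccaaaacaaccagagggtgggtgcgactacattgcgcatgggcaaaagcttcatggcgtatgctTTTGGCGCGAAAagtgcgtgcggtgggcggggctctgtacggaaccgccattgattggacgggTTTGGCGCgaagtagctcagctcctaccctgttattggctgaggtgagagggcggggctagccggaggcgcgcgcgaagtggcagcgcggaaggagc
Pole2, chr12:69228141-69228440, minus strand: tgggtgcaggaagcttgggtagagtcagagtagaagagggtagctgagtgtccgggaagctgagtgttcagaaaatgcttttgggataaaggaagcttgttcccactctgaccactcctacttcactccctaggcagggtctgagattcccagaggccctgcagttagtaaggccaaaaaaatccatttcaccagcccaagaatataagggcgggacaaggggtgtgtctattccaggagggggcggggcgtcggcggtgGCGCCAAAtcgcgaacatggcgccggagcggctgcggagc
E2f2, chr4:136172024-136172323, plus strand: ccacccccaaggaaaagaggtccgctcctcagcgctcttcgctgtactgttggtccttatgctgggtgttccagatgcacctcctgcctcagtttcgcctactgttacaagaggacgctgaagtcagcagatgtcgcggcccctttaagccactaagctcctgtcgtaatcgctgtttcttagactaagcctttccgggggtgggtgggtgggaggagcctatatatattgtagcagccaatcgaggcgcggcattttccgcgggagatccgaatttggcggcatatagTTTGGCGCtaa

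These promoters differ in where the element lies. In the windows shown for Mcm3, Pole2 and E2f2 every match lies just after the annotated start, at bases 20 and 39 in Mcm3, 11 in Pole2 and 40 in E2f2. In Mcm5 a pair of overlapping matches lies upstream, first bases -153 and -149, and Mcm6 holds an overlapping pair at -110 and -106 and a further match at -47. Dnmt1, whose product copies methylation onto the new strand, has a match at -219 and another at 34 in the window shown, 1 of its 3. These positions count from the annotated start of that window and not from its other starts. No test was made between genes with and without a match. With EGF the median Cic-/- minus Cic+/+ difference was -0.63 in the 17 genes with a match and -0.59 in the 24 without. The median EGF change in Cic+/+ clones was 0.50 with a match and 0.42 without.

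All 14 arrays were alike in scale, with medians of 6.49 to 6.54 over probesets, and correlated with each other at 0.930 to 0.973 over probesets. Cic itself lay at 7.40 to 7.67 in Cic-/- arrays, against 9.41 to 9.69 in Cic+/+ arrays with EGF, and at 7.04 to 7.48 against 9.18 to 9.64 without EGF. Clone 4 stood apart in Xist, at 3.83 and 4.73, while the remaining 12 arrays had 11.96 to 12.57. Of 15 listed NSC markers the array measures 14, and all 14 were over the dim limit. That limit leaves out only the lowest 25% of genes, and 17364 of the 23152 genes are over it. A marker over it is thus by itself no sign of that cell type. Markers of other cells were over the limit too, given here with the highest mean level of each list. They were 10 of 10 for oligodendrocyte progenitors (Ptprz1, 12.69), 9 of 9 measured for myelinating oligodendrocytes (Cnp, 8.45) and 8 of 8 for astrocytes (Aldoc, 12.62). Neurons had 10 of 11 (Map2, 11.64) and ependyma 5 of 5 (Foxj1, 6.78). Microglia had 8 of 10 (Cx3cr1, 6.11, with Aif1 and Ptprc under it). Endothelium had 4 of 6 (Flt1, 8.12, with Cldn5 and Tek under it). Mesenchymal and mural cells had 6 of 8 (Acta2, 9.81, with Dcn and Lum under it).

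With EGF, replication genes lay lower in Cic-/- than in Cic+/+ cultures as a group, but none of the 49 passed the test. The median difference was -0.61 on the log2 scale, 48 of 49 were below 0, and single genes ran from -1.34 in Gins1 to 0.02 in E2f1. Over all genes tested the median difference was 0.02 and 47.3% were below 0. The test was limma on all 14 arrays with p-values adjusted over all 17364 genes, and passing means an adjusted p under 0.05, as reached by 0.317% of all genes in either direction. At an unadjusted p under 0.05, 15 members were lower, against 5.52% of all genes lower. The smallest adjusted p among the members was 0.195. Of the 822 probesets, 727 were below 0.

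Origin licensing genes had the lowest median of the 7 roles, -0.80, and all 10 were below 0. Values in every array are given for 1 gene of each role, that with the highest array signal, which is a choice and no comparison of levels between genes. With EGF Mcm4, a helicase subunit, was at 8.05, 9.75 and 9.72 in Cic-/- clones 5 to 7, against 9.89, 10.20, 9.38 and 10.03 in Cic+/+ clones 1 to 4. Clone 5 was the lowest of the 7 by more than a log2 unit, and clones 6 and 7 lay inside the span of the Cic+/+ clones. The helicase subunit Mcm2 differed by -1.03 ± 0.51 (SE), Mcm3 by -0.96 ± 0.62 and Mcm5 by -1.05 ± 0.55, and none of them passed.

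Among the genes that fire origins the median was -0.52 over 8 genes. Gins1, a subunit of the helicase-activating GINS complex, had the lowest difference of all members at -1.34 ± 0.39 (SE, limma adjusted p = 0.196). Its partner Gins4 differed by -0.08 ± 0.14, with levels of 9.50, 9.87 and 9.89 in Cic-/- clones 5 to 7, against 9.91, 9.94, 9.63 and 9.85 in Cic+/+ clones 1 to 4. Its groups overlapped, with clone 5 the lowest. The median was -0.58 over the 7 polymerase and primase genes. Prim2, the large primase subunit, was at 8.22, 8.95 and 8.93 in Cic-/- clones 5 to 7, against 9.16, 9.54, 8.61 and 9.23 in Cic+/+ clones 1 to 4, and again clone 5 alone lay below every Cic+/+ clone.

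Fork genes had a median of -0.60. Pcna, the sliding clamp that holds polymerases on DNA, was at 8.93, 10.56 and 10.59 in Cic-/- clones 5 to 7, against 10.81, 11.07, 10.03 and 10.88 in Cic+/+ clones 1 to 4. Clones 6 and 7 lay between clone 3 and the other Cic+/+ clones, and clone 5 lay below all of them. Lig1, the ligase that joins Okazaki fragments, had the smallest p of the members (-0.75 ± 0.22, adjusted p = 0.195 by limma). It was at 6.94, 7.45 and 7.26 in Cic-/- clones 5 to 7, against 7.77, 8.29, 7.66 and 8.15 in Cic+/+ clones 1 to 4. Here all 3 Cic-/- clones lay below all 4 Cic+/+ clones.

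Genes that supply deoxynucleotides had a median of -0.68. Rrm1, the large subunit of ribonucleotide reductase, was at 9.34, 10.06 and 9.72 in Cic-/- clones 5 to 7, against 10.18, 10.69, 9.88 and 10.32 in Cic+/+ clones 1 to 4. Rrm2, the small subunit, was at 7.43, 8.96 and 8.78 in Cic-/- clones 5 to 7, against 9.17, 9.997, 9.37 and 10.17 in Cic+/+ clones 1 to 4. The groups did not overlap for Rrm2 (-1.29 ± 0.39, limma adjusted p = 0.212), whereas for Rrm1 they did.

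The E2F and cyclin E genes had the smallest median difference, -0.41. Ccne1, a cyclin E, was at 7.30, 8.05 and 8.78 in Cic-/- clones 5 to 7, against 8.84, 8.03, 7.71 and 8.29 in Cic+/+ clones 1 to 4, and the groups overlapped. E2f1, an activating E2F factor, was the 1 member not below 0, at 0.02 ± 0.19. The 6 genes of chromatin upkeep and the fork checkpoint had a median of -0.56. Dnmt1 was at 8.92, 10.07 and 9.998 in Cic-/- clones 5 to 7, against 10.21, 10.44, 9.81 and 10.27 in Cic+/+ clones 1 to 4, with clone 5 again the low array. Uhrf1, which brings Dnmt1 to new DNA, differed by -0.74 ± 0.23 (limma adjusted p = 0.232).

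In 5 of the 49 members all Cic-/- arrays lay below all Cic+/+ arrays with EGF, as in 5.91% of all genes in that direction. They were Lig1, Rrm2, Uhrf1, Slbp, which binds histone mRNA, and Clspn, an adaptor of the replication checkpoint. Leaving out clone 3, the lowest Cic+/+ clone, took that count to 32, against 9.04% of all genes. Leaving out clone 6 took it to 16, against 8.95%.

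**Figure D1:**
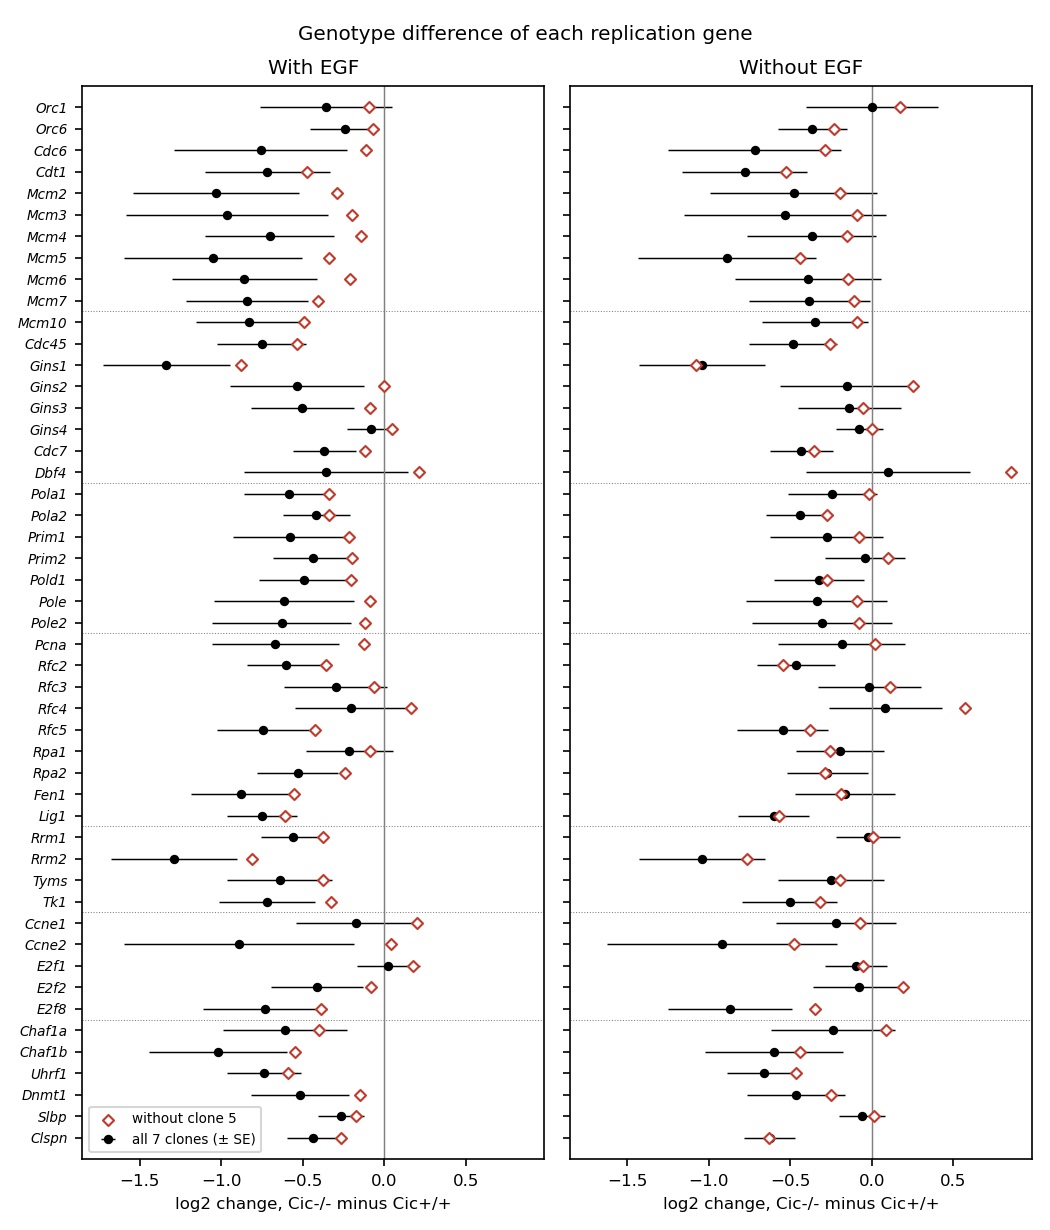
Cic-/- minus Cic+/+ difference of each of the 49 genes on the log2 scale, with EGF and without, with SE from the limma fit. With EGF 48 of the 49 lie below 0 and without EGF 46 do, and none passed the test.

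Without EGF the same genes were again mostly lower in Cic-/- cultures, by less. The median difference was -0.35, 46 of 49 were below 0, and the range was -1.04 to 0.10, against a median of -0.00 over all genes, of which 50.5% were below 0. None of the 49 passed, as 0.553% of all genes did, and 8 were lower at an unadjusted p under 0.05, against 5.85% of all genes. Clspn came closest (-0.63 ± 0.16, limma adjusted p = 0.108), at 5.69, 5.62 and 5.74 in Cic-/- clones 5 to 7, against 6.39, 6.33, 6.08 and 6.44 in Cic+/+ clones 1 to 4. All 3 Cic-/- clones lay below all 4 Cic+/+ clones. Uhrf1 (-0.66 ± 0.23), Lig1 (-0.60 ± 0.22) and Rrm2 (-1.04 ± 0.39) followed, with limma adjusted p-values of 0.279, 0.305 and 0.326.

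By role the medians without EGF ran from -0.53 in chromatin upkeep and the fork checkpoint and -0.43 in licensing to -0.19 at the fork. Mcm4 was at 8.75, 8.92 and 9.86 in Cic-/- clones 5 to 7, against 9.96, 9.72, 8.97 and 9.53 in Cic+/+ clones 1 to 4, and Pcna at 9.86, 9.99 and 10.97 in Cic-/- clones 5 to 7, against 10.62, 10.58, 10.01 and 10.62 in Cic+/+ clones 1 to 4. For both genes clone 7 lay above at least 3 of the 4 Cic+/+ clones, and clones 5 and 6 lay below all 4. Arrays did not overlap in 5 members, Gins1, Cdc7, Lig1, Rrm2 and Clspn, as in 5.18% of all genes in that direction. Cdc7 is the catalytic subunit of the kinase that fires origins. Lig1, Rrm2 and Clspn were thus below every Cic+/+ array of the same medium both times. That was noticed after their values were seen and involves the same clones each time. The share of all genes that lay below in both media was not counted. Rrm2 without EGF was at 7.50, 8.16 and 8.50 in Cic-/- clones 5 to 7, against 8.69, 9.43, 8.64 and 9.61 in Cic+/+ clones 1 to 4. Lig1 was at 6.84, 6.91 and 6.96 in Cic-/- clones 5 to 7, against 7.48, 7.50, 7.04 and 8.004 in Cic+/+ clones 1 to 4. Without EGF clone 7 was, in both genes, the Cic-/- clone nearest to the Cic+/+ clones.

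**Figure D2:**
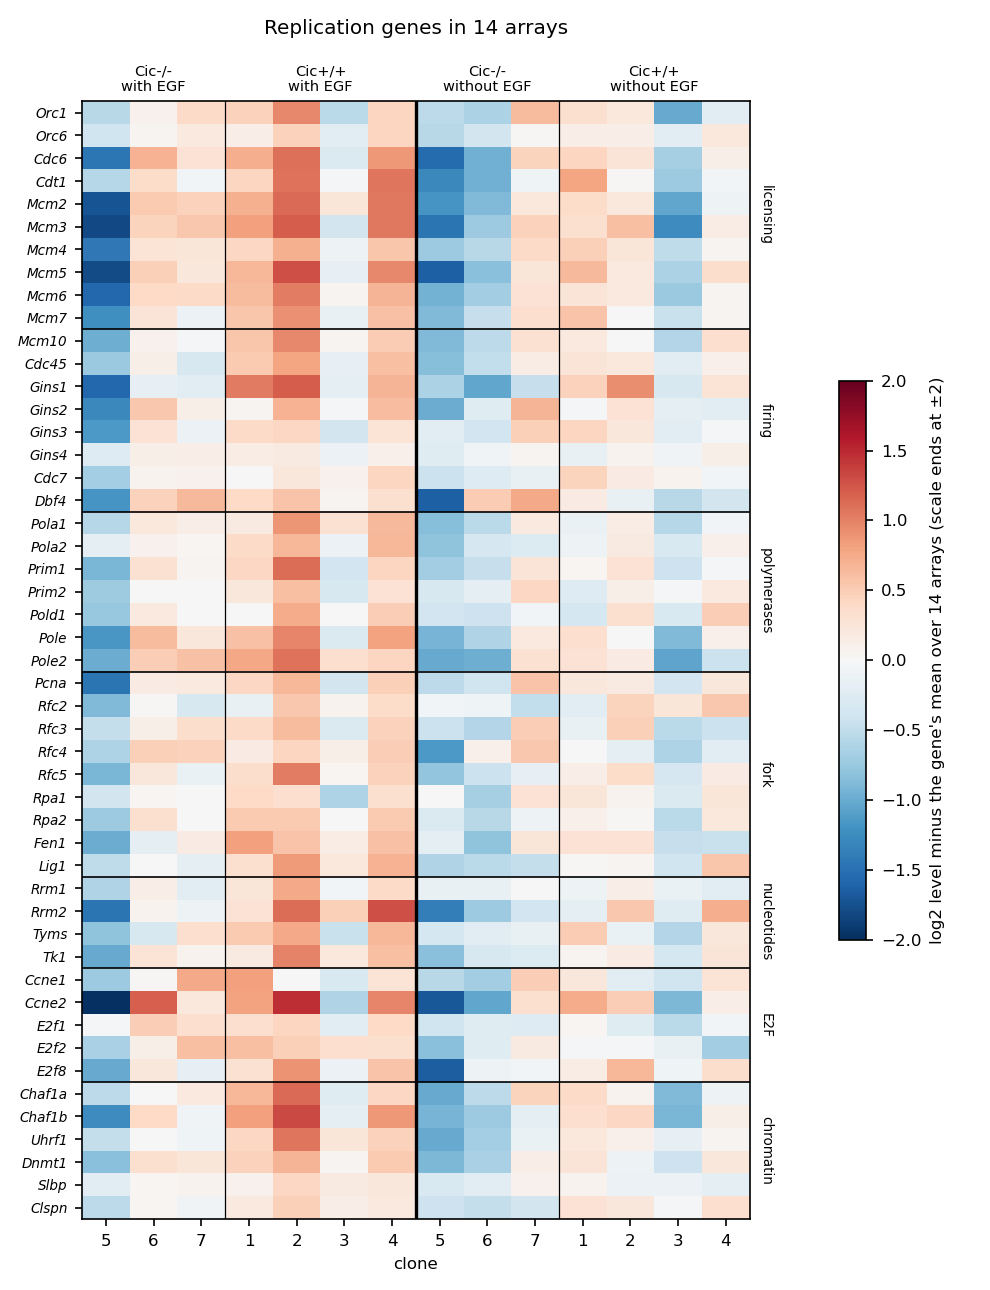
Level of each of the 49 genes in each array, as log2 difference from the gene's mean over the 14 arrays, with genes grouped by role. With EGF clone 5 is the lowest of the 7 clones in 47 of the 49 genes, across all roles, against 20.3% of all genes.

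How far single clones carried the shift was measured with the mean level of the 49 genes in each array. With EGF the mean level was 6.88, 8.02 and 7.93 in clones 5 to 7, against 8.23, 8.58, 7.71 and 8.36 in clones 1 to 4. The group means were 7.61 ± 0.63 in Cic-/- (SD, n = 3) and 8.22 ± 0.37 in Cic+/+ (SD, n = 4), a difference of -0.61 beside a pooled SD between clones of 0.49. Without EGF the clones were at 7.02, 7.30 and 7.93, against 7.99, 7.97, 7.34 and 7.86, with group means of 7.42 ± 0.47 and 7.79 ± 0.30 and a difference of -0.38 beside a pooled SD of 0.38. In both media the ranges of the genotypes overlapped, and Cic+/+ clone 3 lay below at least 1 Cic-/- clone.

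**Figure D3:**
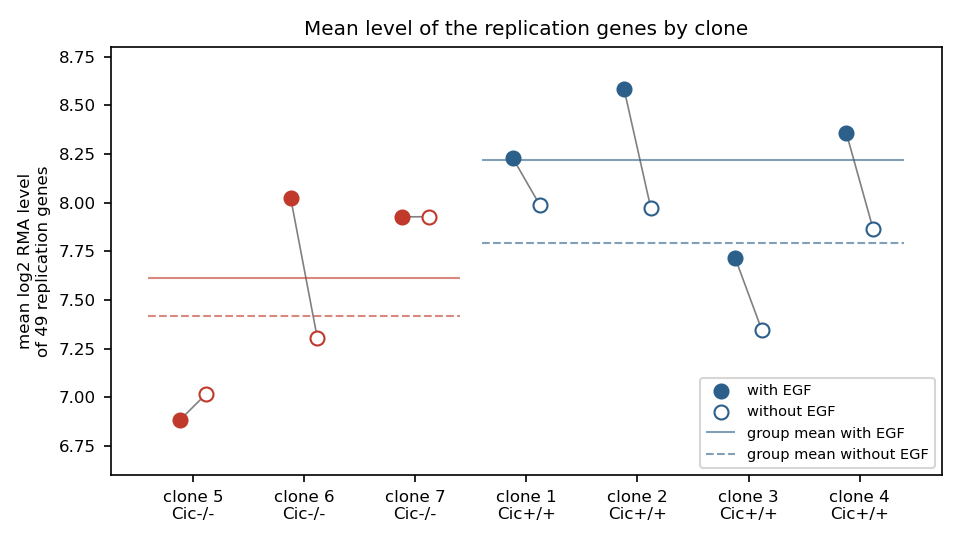
Mean log2 level of the 49 genes in each array, with EGF and without, Cic-/- clones left of Cic+/+ clones, with group means as lines. Clone 5 lies lowest in both media, at 6.88 with EGF and 7.02 without, and clone 3 is the lowest of the Cic+/+ clones.

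Clone 5 held more than any other clone of the genotype difference. Without it the difference in mean level was -0.245 with EGF, 40.2% of the full value, and -0.18 without EGF, 47.0% of it. Leaving out any other clone gave -0.82 to -0.49 with EGF and -0.63 to -0.31 without, the -0.63 being without clone 7. With EGF clone 5 was below the whole Cic+/+ range in 47 of 49 genes, against 26.3% of all genes. It was above that range in 0 of the 49, against 28.8% of all genes. Clone 6 was below the range in 7 (22.1% of all genes) and clone 7 in 16 (24.7%). They lay inside it in 41 and 32 genes, against 54.9% and 48.9% of all genes. Without EGF clone 5 was below the range in 38 genes (23.4% of all genes), clone 6 in 29 (21.5%) and clone 7 in 6 (25%). Clone 7 was above it in 17, against 23.0% of all genes.

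Without clone 5 most of the list still lay below 0, now read from 2 Cic-/- clones. The median difference was -0.21 with EGF, with 42 of 49 genes below 0, against 47.7% of all genes. Without EGF it was -0.19, with 37 below 0, against 50.1% of all genes. The difference in mean level was -0.245 with EGF and -0.18 without, beside pooled SDs between clones of 0.32 and 0.34. The genes vary together, so these counts are not independent. At an unadjusted p under 0.05, 4 members were then lower with EGF, against 5.53% of all genes. Without EGF 5 were lower, against 6.19% of all genes, and 2 were higher, against 5.1%. The smallest adjusted p without EGF was 0.106 and belonged to Dbf4, the activator of Cdc7, at 0.85 ± 0.21 and thus higher in the 2 Cic-/- clones left. The role medians with EGF were -0.37 for deoxynucleotide supply, -0.33 for chromatin upkeep and the fork checkpoint, and -0.24 at the fork. They were -0.20 for licensing, -0.20 for polymerases, -0.10 for firing and 0.04 for the E2F and cyclin E genes.

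The differences between clones are shown in 3 further members, chosen after their values were seen. Ccne2, the other cyclin E, was at 5.11, 8.40 and 7.42 in Cic-/- clones 5 to 7, against 8.01, 8.67, 6.61 and 8.17 in Cic+/+ clones 1 to 4 with EGF. Mcm2, a helicase subunit, was at 6.72, 8.97 and 8.91 in Cic-/- clones 5 to 7, against 9.16, 9.58, 8.69 and 9.49 in Cic+/+ clones 1 to 4. In both genes clone 5 lay far below the rest, and clones 6 and 7 lay within the Cic+/+ range. Dbf4 without EGF was at 6.12, 8.26 and 8.51 in Cic-/- clones 5 to 7, against 7.91, 7.61, 7.20 and 7.39 in Cic+/+ clones 1 to 4. There clone 5 was the lowest array, while clones 6 and 7 lay above every Cic+/+ clone.

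The spread within single genes was divided in the same way. Over the 49 genes the median share of the variance was 51.5% between clones of a genotype, 20.8% between genotypes and 9.2% between media, with 2.0% in the genotype by medium term and 11.46% left over. Over all genes tested the medians were 42.2%, 7.45%, 7.49%, 2.02% and 20.4%. The clone term has 5 degrees of freedom and the genotype term 1, so the shares are descriptive. Genotype held more than the clones in 9 of the 49 genes, and in 15% of all genes. Clspn had the highest genotype share at 69.2%, followed by Gins1 at 57.1%, Rrm2 at 52.6% and Lig1 at 51.9%. In Dbf4 the clones held 86.9%, and in E2f1 the medium held 56.2% and genotype 0.3%.

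The genes varied together from clone to clone. After the group means were taken off, the median correlation between pairs of the 49 over the 14 arrays was 0.771, with a range of -0.091 to 0.994. A total of 35 of the 49 correlated with the mean of the others at over 0.8, as did 2.93% of the 17315 other genes. Rfc2, a clamp loader subunit, was least like the rest at 0.32. These points share arrays and clones, so the values are descriptive.

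The next comparisons ask how EGF bears on these genes within each genotype. In Cic-/- the median change with EGF over without was 0.19, with 39 of 49 genes above 0 and a range of -0.29 to 0.70. Over all genes the median was 0.01 and 49% were below 0. None of the 49 passed, as 0.19% of all genes did, and 1 was higher at an unadjusted p under 0.05, against 4.77% of all genes. That gene was E2f1 (0.56 ± 0.21, limma adjusted p = 0.354), at 7.32, 7.86 and 7.71 with EGF in clones 5 to 7, against 6.97, 7.12 and 7.10 without. All 3 levels with EGF lay above all 3 without EGF. Pola2, the accessory subunit of polymerase alpha, was the other member with no overlap (0.45 ± 0.22, adjusted p = 0.539), as in 6.63% of all genes. Uhrf1 (0.42 ± 0.24) and Cdt1 (0.70 ± 0.41) had limma adjusted p-values of 0.646 and 0.65.

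The 3 Cic-/- clones did not share that change. The mean level with EGF minus without was -0.14 in clone 5, 0.72 in clone 6 and -0.00 in clone 7. In these clones 17, 47 and 26 of the 49 genes were higher with EGF, and the same count over all genes was not made. Without clone 6 the median change of the list was -0.09, and without clone 5 it was 0.34. After the group means were taken off, the arrays of clone 6 correlated at 0.156 over all genes tested, and at up to 0.163 with another clone. The pairing of clone 6 thus rests on its labels. A total of 9 genes (18.4%) were higher with EGF in all 3 clones, close to the 18.2% of all genes. They were Orc6, Cdt1, Pola2, Pole2, Lig1, E2f1, E2f2, Uhrf1 and Dnmt1.

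In Cic+/+ the change with EGF had the same sign in all 4 clones, 0.24, 0.61, 0.37 and 0.49 in mean level for clones 1 to 4. In them 42, 49, 42 and 44 of the 49 genes were higher with EGF, and the same count over all genes was not made. Over the list the median change was 0.44, all but Rfc2 (-0.04) were above 0, and the highest was 0.93. Over all genes the median was -0.00 and 50.4% were below 0. A total of 35 genes were higher with EGF in each of the 4 clones, as were 13.8% of all genes. Without the clone in the model none passed, as 0.898% of all genes did. At an unadjusted p under 0.05, 10 members were higher, against 5.23% of all genes, and in 6 all arrays with EGF lay above all without, as in 3.44% of all genes. The smallest p-values were those of Pola1 (0.66 ± 0.25, limma adjusted p = 0.284), E2f2 (0.308), E2f1 (0.318) and Slbp (0.334).

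**Figure D4:**
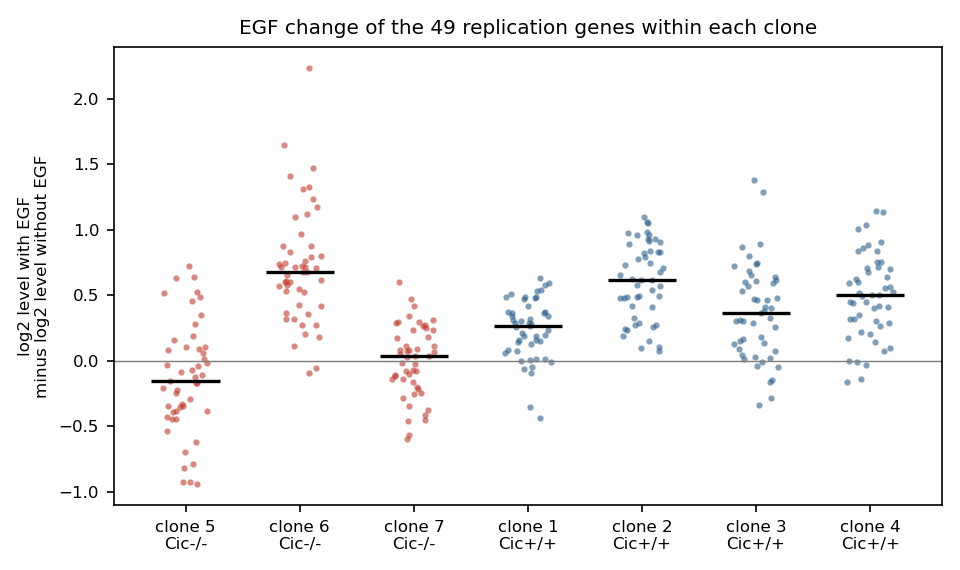
Change of each gene with EGF over without EGF in each clone on the log2 scale, Cic-/- clones left of Cic+/+ clones. The medians are -0.15, 0.68 and 0.04 for Cic-/- clones 5 to 7, against 0.27, 0.62, 0.37 and 0.50 for the Cic+/+ clones 1 to 4.

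Because both arrays of a clone come from the same animal, the EGF change was also fitted with the clone as a fixed block. With that block 5 of the 49 genes rose with EGF in Cic+/+, and 2.3% of all genes rose. They were E2f2 (0.65 ± 0.13, limma adjusted p = 0.0156), Pola1 (0.66 ± 0.15, 0.0327), Pole2 (0.91 ± 0.22, 0.0398), Rrm2 (0.58 ± 0.14, 0.043) and Dbf4 (0.55 ± 0.14, 0.0436). E2f2 is an activating E2F factor, Pola1 the catalytic subunit of polymerase alpha, and Pole2 a subunit of the leading-strand polymerase. At an unadjusted p under 0.05, 30 members were higher, against 9.28% of all genes. The count was 0 with the clone as a random block, and without clone 2 or clone 4 under the fixed block it was 0 as well. Without clone 3 it was 1 (E2f2).

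E2f2 in Cic+/+ clones 1 to 4 was at 6.20, 6.06, 5.92 and 5.91 with EGF, against 5.57, 5.57, 5.44 and 4.90 without. Pole2 was at 7.86, 8.16, 7.42 and 7.52 with EGF, against 7.37, 7.25, 6.03 and 6.66 without. The change in Pole2 ran from 0.49 in clone 1 to 1.38 in clone 3, and that in E2f2 from 0.48 in clone 3 to 1.01 in clone 4. Clone by clone, each of these genes was higher with EGF in all 4 Cic+/+ clones. Pola1 was at 7.76, 8.46, 7.88 and 8.23 with EGF, against 7.44, 7.73, 7.01 and 7.52 without, and Dbf4 at 8.15, 8.31, 7.80 and 8.07 with EGF, against 7.91, 7.61, 7.20 and 7.39 without. Dbf4 levels of the media overlapped across clones, although each clone was higher with EGF. Mcm4 was at 9.89, 10.20, 9.38 and 10.03 with EGF, against 9.96, 9.72, 8.97 and 9.53 without, with clone 1 lower with EGF. Pcna was at 10.81, 11.07, 10.03 and 10.88 with EGF, against 10.62, 10.58, 10.01 and 10.62 without, and clone 3 had nearly the same level in both media. These levels are of the same clones in each medium, so each clone is its own control.

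Under the same fixed block none of the 49 passed in Cic-/-, as 2.99% of all genes did, with 5 higher at an unadjusted p under 0.05 against 8.22% of all genes. E2f1 was nearest (0.56 ± 0.14, limma adjusted p = 0.0645).

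The EGF change itself was tested between genotypes, as the change in Cic-/- minus the change in Cic+/+. The median was -0.28 with 40 of 49 genes below 0, against a median of 0.01 over all genes, of which 48.1% were below 0. None passed, with limma adjusted p-values of 1.0. No member was under an unadjusted p of 0.05, against 2.86% of all genes, and 0.00576% of all genes passed. Rrm1 (-0.54 ± 0.28), Fen1, the flap nuclease of the lagging strand (-0.71 ± 0.43), Prim2 (-0.39 ± 0.35) and Mcm10, an origin firing factor (-0.48 ± 0.46), had the smallest p-values. With the clone as a fixed block none passed either, as 0.0173% of all genes did (smallest adjusted p = 0.761 by limma). Rrm1 and Fen1 were then lower at an unadjusted p under 0.05, 2 of the 49 against 2.83% of all genes. The median was -0.53 without clone 6 and -0.04 without clone 5. A difference between genotypes in the EGF change was therefore not detected at 3 against 4 clones.

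Other genes of the cell cycle were read from lists written with general knowledge and with earlier results of these data known. Of 31 further replication genes tested, 1 fell in Cic-/- with EGF, as did 0.242% of all genes. It was Timeless, a fork protection factor (-0.81 ± 0.15, limma adjusted p = 0.04). Its adjusted p was 0.0545 to 0.159 with any clone left out, and its brightest probeset gave 0.28 (adjusted p = 0.749). The list's median was -0.30 with EGF and -0.08 without. With the clone block 3 of the 31 rose with EGF in Cic+/+ (Pclaf, Ticrr and Asf1b), against 2.3% of all genes. None of the 19 repair genes passed in either genotype comparison, with medians of -0.51 with EGF and -0.225 without.

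Of 32 mitosis genes none passed in either genotype comparison. With EGF the list's median was -0.89 and all 32 were below 0, against 47.3% of all genes. At an unadjusted p under 0.05, 17 of the list were lower, against 5.52% of all genes. Its mean level was 7.54, 8.68 and 8.63 in clones 5 to 7, against 8.82 to 9.53 in the Cic+/+ clones, so that all Cic-/- clones lay below. Without EGF its median was -0.41. The EGF change in the mean level of the mitosis list was 0.19, -0.06 and -0.32 in clones 5 to 7, where the replication genes had -0.14, 0.72 and -0.00. In Cic+/+ clones 1 to 4 it was 0.12, 0.75, 0.05 and 0.58.

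Markers of other cells were compared as the summed log2 level of each of 9 lists, and some sums did not overlap between genotypes. With EGF 4 lists did not overlap. Of single genes over the whole array, 5.91% lay wholly lower in Cic-/- with EGF and 5.81% wholly higher. The 14 NSC markers summed to 138.5 to 140.5 in Cic-/- arrays, against 140.6 to 142.0 in Cic+/+ arrays. That gap was narrow, 140.46 against 140.63, with 9 of the 14 genes below 0, 5 above and none passing. The 10 oligodendrocyte progenitor markers summed to 95.8 to 98.4 in Cic-/-, against 101.7 to 106.4 in Cic+/+, and the 9 of myelinating oligodendrocytes to 51.3 to 54.3, against 55.4 to 57.7. The endothelial sum was higher in Cic-/-, at 31.5 to 33.0 against 30.5 to 31.4. Its gap was narrow as well, 31.55 against 31.39, and 2 of its 6 genes, Cldn5 and Tek, were under the dim limit. The astrocyte, neuron, ependymal, microglial and mesenchymal sums overlapped. Without EGF 2 lists did not overlap, where 5.18% of single genes lay wholly lower in Cic-/- and 4.2% wholly higher. The myelinating oligodendrocyte sum was 53.5 to 55.4 in Cic-/- arrays, against 67.7 to 72.0 in Cic+/+ arrays, and the neuroblast and neuron sum was 81.5 to 82.5, against 78.7 to 80.2. The other 7 overlapped, the NSC and progenitor sums among them.

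Glial markers also moved with EGF in the Cic+/+ clones in which the replication genes were higher. The mean level of the myelinating oligodendrocyte markers with EGF minus without was -1.32, -1.51, -1.78 and -1.58 in clones 1 to 4, and that of the astrocyte markers was -1.11, -1.41, -1.05 and -0.92. With the clone as a fixed block 7 of 9 and 5 of 8 of them fell in Cic+/+ at an adjusted p under 0.05 in limma, against 3.28% of all genes. In Cic-/- clones 5 to 7 the myelinating markers had 0.10, -0.31 and -0.27, and the astrocyte markers -0.64, -0.67 and -0.86. Under the same block 0 of 9 myelinating and 3 of 8 astrocyte markers (Aqp4, Slc1a2 and S100b) fell in Cic-/-, against 1.6% of all genes. The part of these marker shifts in the levels of the replication genes, between genotypes or between media, was not tested.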

How the data were processed

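Gene expression was measured in 14 Affymetrix arrays, 1 per culture. The deposited values are log2 probeset levels made by the authors with RMA, per the submitters' processing notes, which background-corrects, quantile-normalizes and summarizes probes. No RMA version or annotation build is stated in the labels. Quantile normalization sets the arrays to 1 distribution, so a shift of most genes at once would be removed, and values are relative within an array. No raw intensities were used.

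Of 269751 probesets, 233753 name 1 gene, 5106 several and 30892 none. A gene's value was the median of probesets that name it alone. Symbols were updated through RefSeq. The lowest 25% of genes, under a mean level of 4.40, were left out as dim, 5788 genes. Limma 3.58.1 in R 4.3.3 was fitted to 4 group means on 17364 genes, with Benjamini-Hochberg adjustment and two-sided tests. The number of arrays limits the precision, with 10 residual degrees of freedom. A gene passed, and is said to have risen or fallen, at an adjusted p under 0.05.

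Clone numbers mark the same animal in both media. Deviations from the group means correlated within clones at 0.156 to 0.616, and clone 6 correlated slightly more with another clone (0.163), so the clone was also fitted as a block. Other alternatives were the mean or brightest probeset, no or a stricter dim filter, a trended prior, centring, quantile normalization, only the arrays compared, and each clone left out. Leaving out clones under the fixed block was chosen after seeing the data. The procedure was tested on simulated data. The members and lists were chosen with earlier results of these data known. Named by rule are the members that passed, or otherwise the 4 with the smallest p in each comparison, 1 member of each role, and up to 3 passing genes of another list. Mcm2, Mcm3, Mcm5, Dbf4, Rfc2, Gins4 and genes named for their arrays, variance or sign were chosen after their values were seen. Figures were drawn with Python 3.11.15, pandas 2.3.3 and matplotlib 3.10.9.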

Additional observations from a re-analysis of the deposited data

Results flagged for a closer look

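In groups of 4 arrays, 4 gene values lay further from the other 3 than Dixon's critical value for 4 values allows, out of 100 groups tested. Chance gives about 1 in 20. All 4 were the lowest of their group and came from Cic+/+ clone 3. With EGF, Rpa1, a subunit of the single-strand binding protein, was at 7.71, against 8.65 to 8.73 in the other clones. Its partner Rpa2 was at 7.88, against 8.41 to 8.42. E2f1 was at 7.15, against 7.71 to 7.80. Without EGF, Pcna was at 10.01, against 10.58 to 10.62. Groups of 3 Cic-/- arrays were not tested, so the low values of clone 5 could not be flagged this way.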

How the results depend on the processing

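The count of members passing was 0 without a block in each of the 5 comparisons, and it stayed 0 under every other setting run that did not hold the clone as a fixed block. With the clone as a fixed block, 5 members passed for the EGF effect in Cic+/+. With the fixed block and 1 clone left out, that count was 6, 0, 1 and 0 without clones 1 to 4 and 8, 11 and 5 without clones 5 to 7. The block changed no other call among the members, and the random block gave 0 throughout. Leaving out 1 clone moved the median difference between genotypes to -0.82 to -0.21 with EGF and to -0.59 to -0.19 without. It moved the median EGF change to -0.09 to 0.34 in Cic-/-, to 0.35 to 0.49 in Cic+/+, and to -0.53 to -0.04 for their difference. The brightest probeset reversed Timeless with EGF (0.28) and the difference of EGF changes for Mcm10 (0.042). The 3 and 4 clones a group limit the precision of every value.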

Other observations

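Most genes of G1 control and quiescence, which decide whether a cell enters S phase, were higher with EGF in Cic+/+. Of 36 tested there with EGF over without, 28 were above 0 and 8 below, with a median of 0.21. Over all genes 50.4% were below 0. At an adjusted p under 0.05, 1 rose and 1 fell, as 0.305% and 0.593% of all genes did. Cdkn1a, an inhibitor of cyclin-dependent kinases induced by stress and by growth factor signals, rose by 1.09 ± 0.19 (limma adjusted p = 0.0148). Cdkn1c, an inhibitor tied to quiescence, changed by -1.72 ± 0.32 (adjusted p = 0.0202). Both calls were lost without clone 2 (adjusted p = 0.101 and 0.168) and without clone 4 (0.12 and 0.184), and with the brightest probeset Cdkn1c had an adjusted p of 0.149. With the clone as a fixed block 4 of the 36 rose and 1 fell, against 2.3% and 3.28% of all genes. Ccnd1, the D-type cyclin that opens the path to the E2F genes, was among those that rose. In Cic-/- none of the 36 passed without the block, and Cdkn1a rose with it. Without EGF, Cdkn1c was lower in Cic-/- than in Cic+/+ by -1.66 (limma adjusted p = 0.048).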
